A study of Mus musculus with 4 samples.

Results

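Long intergenic noncoding RNAs (lincRNAs) were followed across 4 populations of sorted inner-ear cells. They were all genes of the expression table whose biotype was given as lincRNA, 133 of the 12814 genes listed. Of these, 28 had at least 200 in some library and are named below, and the other 105 are described by counts and ranges.

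A lincRNA is spliced and capped like a messenger RNA but encodes no known protein, and it lies between protein-coding genes. Some act in the nucleus on chromatin or splicing, some bind microRNAs in the cytoplasm, and some serve mainly as the precursor from which a microRNA or a small nucleolar RNA is cut. LincRNAs are often restricted to a tissue or cell type and are usually less abundant than messenger RNAs.

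The cells came from newborn (postnatal day 1) *Atoh1/nGFP* mice on a C57BL/6 background, in which an *Atoh1* transgene drives a nuclear green fluorescent protein in hair cells (HCs), the mechanosensory cells of the ear. Cells dissociated from the cochlea, the organ of hearing, or from the vestibular organs, which sense balance, were sorted into HCs, which carried the fluorescent protein and the epithelial antigen CD326, and epithelial non-sensory cells (ENSCs), which carried CD326 alone. All 4 groups therefore carried the transgene, and each was represented by 1 library. No replicate spread could be computed, so that every difference below is a difference between libraries and is given with no p-value.

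Values are read counts after quantile normalization with a floor of 20, called signal below, and are not divided by gene length. Normalization gave every column the same set of signals, and the lowest of them were treated as tied, not ranking a gene. The top of this tied range was estimated for each library. It was the last low signal before the median of the genes' highest signal in the other libraries fell sharply. This gave 24.25 in cochlear HCs, 22.75 in cochlear ENSCs and 30.5 in vestibular HCs. For vestibular ENSCs the top was 20, the floor, which was also the value used where no such fall was found. A fold against such a signal is a lower bound computed against the top of that tied range, and sequencing depth is unknown. As a check of the sort, all 10 listed HC markers were above the tied range in both HC libraries, and 5 of them in cochlear ENSCs and 8 in vestibular ENSCs were inside it. The 10 listed ENSC markers were less clear. None was inside the tied range of either ENSC library, but only 1 was inside that of vestibular HCs and 0 inside that of cochlear HCs. Of these, 7 were higher in ENSCs of both organs, among them *Epyc* (62028.5 in cochlear ENSCs against 763.75 in cochlear HCs) and *Tecta*, and *Fgfr3*, *Gjb6* and *Jag1* were higher in HCs of both organs. Fewer cells of a type and less RNA per cell cannot be told apart in such pooled samples.

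Several of the named lincRNAs contain microRNA precursors on their own strand, and the sequences of the mature microRNAs are shown because they are the best-known products of these transcripts. *H19* holds *Mir675*, *5330434G04Rik* holds *Mir325*, *C130071C03Rik* holds *Mir9-2*, *Meg3* holds *Mir770* and *Mir1906-1*, and *Mir17hg* holds a cluster of 6 precursors. The libraries measured the long transcripts only. In the mature sequences from RefSeq, written 5′ to 3′, capitals mark the seed, bases 2 to 8, which chooses the targets of a microRNA. Of the 20 mature sequences, only miR-17-5p with miR-20a-5p and miR-19a-3p with miR-19b-3p shared a seed, and all 4 come from *Mir17hg*.
miR-17-5p: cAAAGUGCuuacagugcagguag
miR-20a-5p: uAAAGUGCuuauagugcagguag
miR-19a-3p: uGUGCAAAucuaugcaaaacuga
miR-19b-3p: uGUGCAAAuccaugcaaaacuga
miR-18a-5p: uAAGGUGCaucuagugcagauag
miR-92a-3p: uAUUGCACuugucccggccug
miR-9-5p: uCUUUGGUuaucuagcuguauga
miR-9-3p: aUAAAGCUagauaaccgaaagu
miR-325-5p: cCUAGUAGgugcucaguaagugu
miR-325-3p: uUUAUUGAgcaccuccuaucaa
miR-675-5p: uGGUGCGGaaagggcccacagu
miR-675-3p: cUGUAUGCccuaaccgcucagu
miR-770-5p: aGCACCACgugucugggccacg
miR-770-3p: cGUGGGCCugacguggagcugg
miR-1906: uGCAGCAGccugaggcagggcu

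The abundant lincRNA *1700020I14Rik*, known as Cyrano, is a target rather than a source of a microRNA. Its exons hold a site that pairs with both ends of miR-7a-5p and is shown with capitals for the bases that pair. It lies at chr2:119427873-119427897 (NCBIM37, the assembly also called mm9, plus strand). The last 8 bases pair with the 5′ end of the microRNA and the first 13 with its 3′ end, with 4 unpaired bases between them.
Cyrano site: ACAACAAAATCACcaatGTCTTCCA
miR-7a-5p: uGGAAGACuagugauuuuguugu

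LincRNAs were low in these libraries. The median over the 133 lincRNAs of the highest signal in any library was 89.5, against 264.25 over 11820 protein-coding genes, and 28 of them (21.1%) reached 200 in some library, against 56.9% of protein-coding genes. Only 45 lincRNAs (33.8%) were above the tied range in all 4 libraries, where 67.1% of all genes were, and 36 (27.1%) were above it in a single library, against 9.07% of all genes. The single library was cochlear HCs for 10 lincRNAs (7.52%, against 1.61% of all genes), cochlear ENSCs for 9 (6.77%, against 1.44%), vestibular HCs for 8 (6.02%, against 1.05%) and vestibular ENSCs for 9 (6.77%, against 4.97%). Both HC libraries and neither ENSC library were above it for 13 (9.77%, against 3.18%), among them *5330434G04Rik* and *Gm1322*, and both ENSC libraries and neither HC library for 3 (2.26%, against 5.43%). They were also shorter than protein-coding genes, with a median exonic length of 2581 nt against 4019 nt, and had a lower GC content, with a median of 46.6% against 49.1%.

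The most abundant lincRNA was *Malat1* (chr19:5795690-5802671, minus strand), a nuclear RNA of splicing speckles that most cells express. Its signal was 62028.5 in cochlear HCs and 72830.5 in each of the other libraries. It was the gene of rank 3 in those libraries and of rank 4 in cochlear HCs, and since quantile normalization gives equal ranks equal signals, its ratios carry the ranks only. *Malat1* made up between 71.3% and 79.6% of the summed lincRNA signal of a library, and without it the lincRNAs held between 0.238% and 0.375% of the column sum.

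*Tug1*, first described in the retina, and Cyrano had the highest signals after *Malat1* in both HC libraries. *Tug1* (chr11:3539797-3548815, minus strand) had signals of 3376.25 in cochlear HCs, 5714.25 in cochlear ENSCs, 3731.5 in vestibular HCs and 6053.25 in vestibular ENSCs. Cyrano (chr2:119420033-119433238, plus strand) had 4963, 4226.75, 5714.25 and 2758 in the same order. *Tug1* was therefore higher in ENSCs than in HCs of the same organ, and Cyrano higher in HCs, but no ratio of either within an organ or a cell type reached 3.

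Levels of different lincRNAs can be compared per length only. Per kb of exon, *Malat1* stood first in all 4 libraries, from 8884 in cochlear HCs to 10431 in the others. Next to it in cochlear HCs were *Gm8327* at 656 per kb, Cyrano at 598 and *Tug1* at 506. In vestibular HCs Cyrano (688 per kb), *Tug1* (559) and *Gm1322* (464) followed. In cochlear ENSCs *H19* was second at 2815 per kb, ahead of *Gm8327* (935) and *Tug1* (856). In vestibular ENSCs *Tug1* (907), *H19* (634) and *2410006H16Rik* (575) came after *Malat1*. Without replicates, neighbours in these orders cannot be said to differ.

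**Figure D1:**
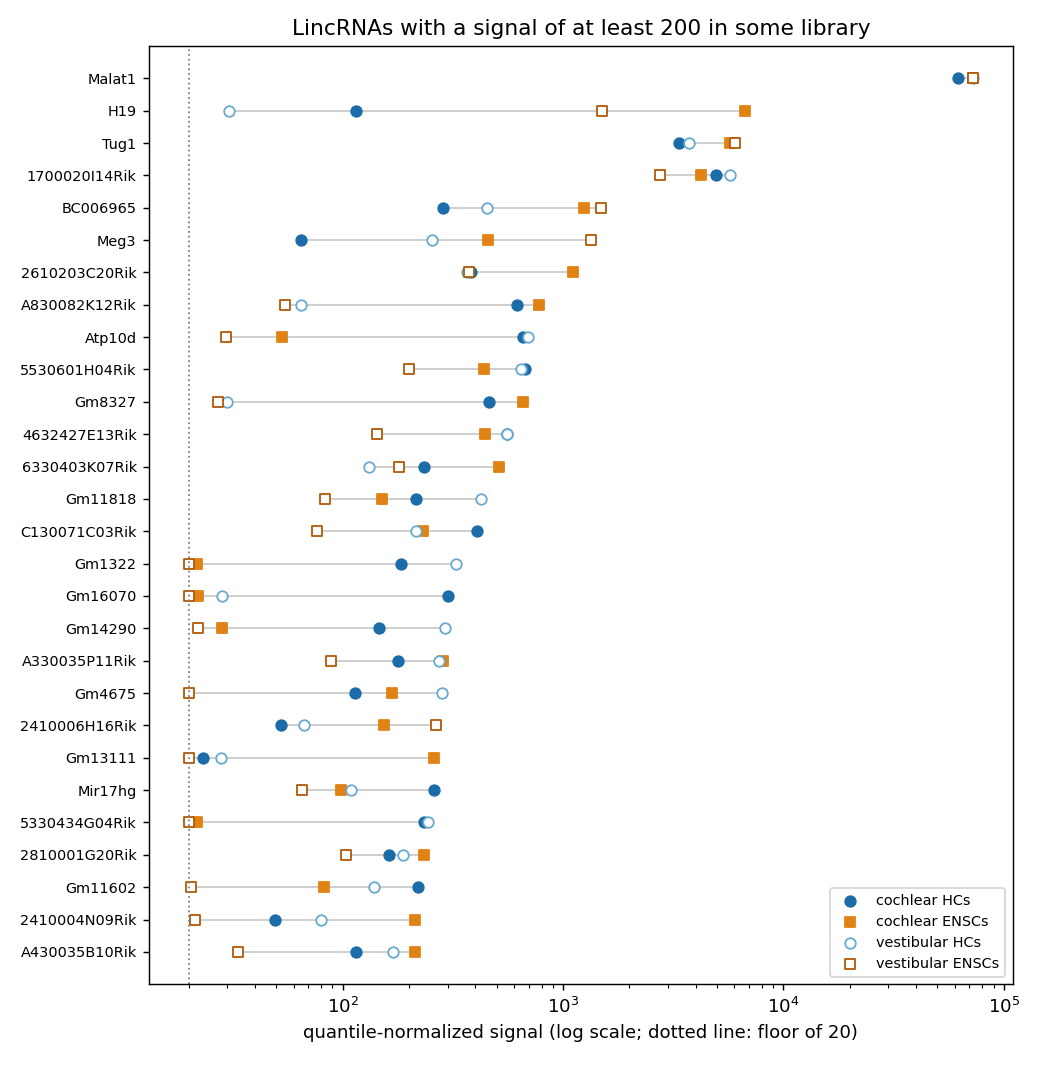
Signal of the 28 lincRNAs with at least 200 in some library, on a log axis. Each row is 1 lincRNA, filled symbols are cochlear and open symbols vestibular, circles are HCs and squares ENSCs, and the grey line joins the lowest and highest library. *H19* spans from 30.5 to 6676.75, whereas *Tug1* and 1700020I14Rik (Cyrano) stay within a factor of 3, and the symbols of *Malat1* overlap at 62028.5 and 72830.5.

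The first comparison asked which lincRNAs set HCs apart from ENSCs. In the cochlea 14 lincRNAs (10.5%) were at least 3-fold higher in HCs, where 8.39% of all genes were, and 12 (9.02%) were at least 3-fold lower, where 9.2% of all genes were. Among the 28 named lincRNAs 5 (17.9%) were higher and 5 lower, against 10.4% and 11.9% of all genes that reached 200. In 7 of the 14 and 8 of the 12 the smaller signal was inside the tied range. The median log2 ratio over the 133 lincRNAs was 0.00, as over all genes. With at least 100 in some library, 11 of 57 lincRNAs (19.3%) were higher and 6 (10.5%) lower, against 10.2% and 11.2% of all such genes.

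The vestibular libraries gave another picture. At least 3-fold higher in HCs were 30 lincRNAs (22.6%), against 13.8% of all genes, and 9 (6.77%) were at least 3-fold lower, against 14.3% of all genes. In 15 of the 30 and 5 of the 9 the smaller signal was inside the tied range. The median log2 ratio was 0.62, and that of all genes was 0.00 to 2 decimals. The excess of higher lincRNAs over all genes was lost with higher floors. At a floor of 50, 9.77% of lincRNAs and 9.87% of all genes were higher, and at 100 the order turned, to 3.76% and 7.03%. A gene passes 3-fold only if its higher signal is at least 3 times the floor. The median highest signal was 89.5 over lincRNAs and 240.5 over all genes, so raised floors drop more lincRNAs by level alone. With at least 100 in some library, 22 of 57 lincRNAs (38.6%) were higher and 8 (14%) lower, against 16.9% and 17.5% of all such genes. Among the named lincRNAs 12 (42.9%) were higher and 4 (14.3%) lower, against 17.5% and 17.8% of all genes that reached 200. Of these 16, 14 stayed past 3-fold with a floor of 50 and 8 with one of 100. With a pseudocount of 100, 6 stayed, and 12 after length and GC correction. Ratios above 0 were found for 80 lincRNAs and ratios below 0 for 31. In both organs at least 3-fold higher in HCs were 8 lincRNAs, which is 57.1% of the cochlear list and 26.7% of the vestibular list, and 6.02% of lincRNAs where 4.99% of all genes were. The 4 lincRNAs at least 3-fold lower in HCs of both organs were 33.3% of the cochlear and 44.4% of the vestibular list, and 3.01% of lincRNAs against 4.66% of all genes. Higher in HCs of either organ were 36 (27.1%, against 17.1% of all genes) and lower 17 (12.8%, against 18.9%). *2410004N09Rik* alone passed 3-fold in opposite directions (0.752%, against 0.406%).

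**Figure D2:**
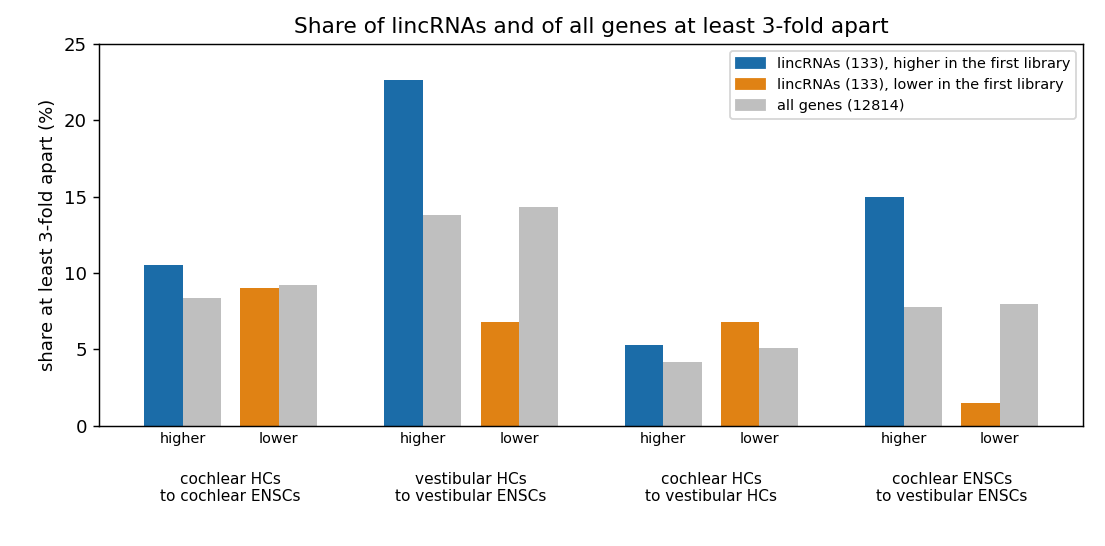
Share of the 133 lincRNAs (coloured bars) and of all 12814 genes (grey bars), in percent, that were at least 3-fold higher or lower in the first library of each of the 4 comparisons. The bars are close in the cochlea, while in the vestibular HC to ENSC comparison 22.6% of lincRNAs were higher and 6.77% lower, and between ENSC libraries 15% were higher in the cochlea and 1.5% lower.

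Of the lincRNAs above 200, 4 were at least 3-fold higher in HCs of both organs: *Atp10d*, *5330434G04Rik*, *Gm1322* and *Gm14290*. *Atp10d* (chr5:72594568-72690014, plus strand) had signals of 659.75 (cochlear HCs) and 690.75 (vestibular HCs), but 53.25 and 29.5 in the ENSCs of these organs. The log2 ratios were 3.63 and 4.55. RefSeq now lists this gene, named for a family of phospholipid-transporting P-type ATPases, as a transcribed pseudogene.

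*5330434G04Rik* (chrX:102543621-102587115, minus strand), the host of *Mir325*, reached 233 in cochlear HCs and 243.25 in vestibular HCs. It stood at 21.75 in cochlear ENSCs and at the floor of 20 in vestibular ENSCs. Both HC libraries were close to each other and at least 10.2-fold and 12.2-fold above the ENSCs of the same organ.

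*Gm1322* (chr2:67011891-67023007, plus strand), which RefSeq lists as protein-coding, had 183.75 in cochlear HCs, 21.75 in cochlear ENSCs, 326.5 in vestibular HCs and 20 in vestibular ENSCs. HCs were above ENSCs by at least 8.08-fold (cochlea) and 16.3-fold (vestibular organs). *Gm14290* (chr2:166924294-166927326, minus strand) had 146.25, 28.25, 293 and 22 in the same order, with log2 ratios of 2.37 and 3.74. With the floor raised to 50 its cochlear log2 ratio was 1.55, just under 3-fold. With the floor at 100 the cochlear log2 ratios of *5330434G04Rik*, *Gm1322* and *Gm14290* were 1.22, 0.88 and 0.55, under 3-fold. The vestibular ones of *5330434G04Rik* and *Gm14290* were then 1.28 and 1.55, also under 3-fold. In each of these cases the HC signal was below 3 times the floor used, so that no ENSC signal could have kept it past 3-fold. *Gm1322* and *Gm14290* had their highest signal in vestibular HCs.

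The promoters of these 4 lincRNAs are shown because the transcripts were high in HCs of both organs. Each stretch of 300 bases runs from 250 bases before to 50 bases after the annotated start, read in the direction of transcription from NCBIM37. The motifs searched on both strands were CAGCTG, a form of the E-box that bHLH factors such as ATOH1 can bind, GTTGCC, part of the site of RFX factors, and the CCAAT box. Over 12798 promoters of the table these were found in 14.2%, 12.3% and 37.6%, and over 131 lincRNA promoters in 17.6%, 9.92% and 38.2%. Capitals mark the matches. *Atp10d* held CAGCTG at -98 and 2 CCAAT boxes at -82 and -30, *Gm1322* and *Gm14290* held 1 CCAAT box each, at -149 and -65, and none of the motifs was found in the window of *5330434G04Rik*. The positions are chr5:72594318-72594617 (plus strand), chrX:102587066-102587365 (minus strand), chr2:67011641-67011940 (plus strand) and chr2:166927277-166927576 (minus strand), in the order of the sequences.
Atp10d: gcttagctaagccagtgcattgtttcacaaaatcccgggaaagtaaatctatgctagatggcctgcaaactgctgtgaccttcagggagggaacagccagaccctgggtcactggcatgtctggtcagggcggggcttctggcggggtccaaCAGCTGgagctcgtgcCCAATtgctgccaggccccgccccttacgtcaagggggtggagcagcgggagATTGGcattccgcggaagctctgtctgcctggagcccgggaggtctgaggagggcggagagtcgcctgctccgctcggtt
5330434G04Rik: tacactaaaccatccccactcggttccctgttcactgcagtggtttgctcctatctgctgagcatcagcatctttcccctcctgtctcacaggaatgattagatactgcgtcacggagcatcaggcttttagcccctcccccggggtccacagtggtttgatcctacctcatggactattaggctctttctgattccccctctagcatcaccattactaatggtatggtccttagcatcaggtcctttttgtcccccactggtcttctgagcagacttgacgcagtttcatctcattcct
Gm1322: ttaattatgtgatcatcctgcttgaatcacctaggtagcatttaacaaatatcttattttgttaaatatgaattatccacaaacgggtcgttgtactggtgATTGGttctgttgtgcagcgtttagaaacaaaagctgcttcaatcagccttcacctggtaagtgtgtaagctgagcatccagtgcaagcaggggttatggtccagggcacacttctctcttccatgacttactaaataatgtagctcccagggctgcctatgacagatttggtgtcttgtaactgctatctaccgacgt
Gm14290: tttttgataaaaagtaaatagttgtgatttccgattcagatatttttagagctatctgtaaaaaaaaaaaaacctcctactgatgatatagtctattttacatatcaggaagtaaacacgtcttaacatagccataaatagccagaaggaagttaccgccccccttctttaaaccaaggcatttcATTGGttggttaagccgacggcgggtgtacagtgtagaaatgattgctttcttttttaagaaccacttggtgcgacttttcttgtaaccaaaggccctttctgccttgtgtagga

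In the other direction, *H19*, *Meg3* and *BC006965* were at least 3-fold lower in HCs of both organs. *H19* (chr7:149761434-149764048, minus strand) is an imprinted RNA, transcribed from the maternal chromosome and abundant in fetal tissues. Its signal was 115.5 in cochlear HCs, 6676.75 in cochlear ENSCs, 30.5 in vestibular HCs and 1504 in vestibular ENSCs. It had the largest HC to ENSC ratios of all lincRNAs in either direction, 57.8-fold lower in cochlear HCs and at least 49.3-fold lower in vestibular HCs. *Igf2*, the growth factor gene of the same imprinted domain at a distance of 72625 nt, had 149, 5119, 30.5 and 567 in the same order. Some markers of mesenchyme moved with these values. Of the 8 listed, 6 were in the table, and their summed signal was 1027.75 in cochlear HCs, 17244.25 in cochlear ENSCs, 237 in vestibular HCs and 2580.25 in vestibular ENSCs. Of these 6, 3 were inside the tied range in cochlear HCs, 4 in vestibular HCs and 0 in either ENSC library. Like *H19*, 4 of the 6 were higher in cochlear than in vestibular ENSCs: *Lum* (12731.25 and 413.75), *Dcn* (1828.25 and 250.5), *Col1a2* (1618 and 443.25) and *Postn* (962.25 and 413.5). The other 2, *Col1a1* (58.25 and 512.25) and *Col3a1* (46.25 and 547), were lower. *Pou3f4* and *Twist1* were listed as markers but were not in the expression table. All cells were gated on CD326, an epithelial antigen. Whether mesenchymal cells passed the gate, and their part in the *H19* signal, was not tested.

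*Meg3* (chr12:110779211-110809936, plus strand) is the maternally expressed RNA of another imprinted domain, which also holds *Rtl1*. Its signals were 64.75 in cochlear HCs, 455.75 in cochlear ENSCs, 254.75 in vestibular HCs and 1342.5 in vestibular ENSCs. HC libraries were lower within each organ, by log2 ratios of -2.82 and -2.40, and cochlear libraries were lower than vestibular ones of the same cell type, by -1.98 in HCs and -1.56 in ENSCs. *Rtl1* was at the floor in 3 libraries and had 48.25 in vestibular ENSCs, the library where *Meg3* was highest. Of the mesenchyme markers, *Col1a1* (512.25) and *Col3a1* (547) were also highest in that library. *Lum*, *Dcn*, *Col1a2* and *Postn* were highest in cochlear ENSCs instead. The part of mesenchymal cells in the *Meg3* signal was not tested.

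*BC006965* (chr11:112525241-112643290, minus strand) starts 248 nt from *Sox9*, on the opposite strand. SOX9 is a transcription factor of the developing otic epithelium and of supporting cells. *BC006965* had 286.25 in cochlear HCs, 1249.5 in cochlear ENSCs, 450.5 in vestibular HCs and 1483.25 in vestibular ENSCs. *Sox9* had 936.75, 6452.5, 1364.5 and 4269.25 in the same order. Both genes were therefore at least 3-fold lower in HCs of both organs, with log2 ratios of -2.13 and -1.72 for *BC006965*. The 247 bases between the 2 starts, chr11:112643291-112643537 on the plus strand, towards *Sox9*, hold 60.3% GC and 2 CCAAT boxes, in capitals, and neither CAGCTG nor GTTGCC.
BC006965 to Sox9: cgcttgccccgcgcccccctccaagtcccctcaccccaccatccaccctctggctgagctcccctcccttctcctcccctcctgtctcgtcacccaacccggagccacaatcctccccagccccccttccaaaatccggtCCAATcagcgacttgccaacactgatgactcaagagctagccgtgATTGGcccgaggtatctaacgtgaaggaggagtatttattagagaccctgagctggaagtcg

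Some named lincRNAs passed 3-fold in 1 organ. In the cochlea these were *Gm16070*, higher in HCs, and *Gm13111*, higher in ENSCs. *Gm16070* had 300.25 in cochlear HCs, 22 in cochlear ENSCs, 28.25 in vestibular HCs and 20 in vestibular ENSCs, so that it was above the tied range in cochlear HCs alone, at least 13.2-fold above cochlear ENSCs. *Gm13111* had 23.25, 261, 28 and 20 in the same order and was above the tied range in cochlear ENSCs alone, at least 10.8-fold above cochlear HCs. With a floor of 100 its log2 ratio was -1.38, under 3-fold, which follows from a highest signal below 3 times that floor. It starts 703 nt from *Prdm16*, a gene of a zinc-finger transcriptional regulator on the opposite strand, whose signals were 60.25, 1011.5, 29.75 and 87.25.

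In the vestibular system 8 named lincRNAs were at least 3-fold higher in HCs without being so in the cochlea (28.6%, against 9.9% of all genes that reached 200). The largest ratio was that of *Gm4675*, with 114.25 in cochlear HCs, 168.25 in cochlear ENSCs, 282.25 in vestibular HCs and 20 in vestibular ENSCs, at least 14.1-fold. *Gm11602* had 221, 82, 138.5 and 20.5 in the same order, a vestibular log2 ratio of 2.76, and *Gm11818* had 216.5, 151.5, 426.25 and 83.5, a log2 ratio of 2.35. The latter is listed in RefSeq as a synonym of the protein-coding gene *Triqk*. *A430035B10Rik* had 115.5, 212.25, 170.25 and 33.5, a log2 ratio of 2.35. In all 4 of these the vestibular ENSC library was the lowest of the libraries. *Gm11602* was under 3-fold with a floor of 50 (log2 ratio of 1.47), and *Gm4675* (1.497) and *A430035B10Rik* (0.77) with a floor of 100. Their vestibular HC signals were below 3 times these floors, which fixed that outcome.

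For 3 others of the 8, *5530601H04Rik*, *4632427E13Rik* and *A330035P11Rik*, the vestibular log2 ratios were 1.68, 1.96 and 1.62. Once the trend of the ratios with length and GC content was removed, they were under 3-fold, at 0.83, 1.29 and 1.34. The signals of *4632427E13Rik* show the pattern: 556.75 in cochlear HCs, 441.5 in cochlear ENSCs, 559.25 in vestibular HCs and 143.25 in vestibular ENSCs, with 3 libraries close together and the vestibular ENSC library apart. The remaining one was *2410004N09Rik*, which was lower in HCs of the cochlea.

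The small RNA hosts did not move as 1 group. *Mir17hg* (chr14:115442101-115445949, plus strand), the precursor of the miR-17 to miR-92a cluster, a cluster linked to proliferation, had 261 in cochlear HCs, 98.5 in cochlear ENSCs, 109.75 in vestibular HCs and 65.25 in vestibular ENSCs, with log2 ratios of 1.41 and 0.75, under 3-fold. *C130071C03Rik* (chr13:83861160-83880913, plus strand), the host of *Mir9-2*, a precursor of the neural microRNA miR-9, had 406.25, 231.75, 216 and 76.25, 1.75-fold and 2.83-fold higher in HCs. Both were highest in cochlear HCs and lowest in vestibular ENSCs. *2410006H16Rik*, the host of the small nucleolar RNAs *Snord49a*, *Snord49b* and *Snord65*, had 52.75, 154, 67 and 265.75 and was higher in ENSC libraries, with a cochlear log2 ratio of -1.55 and a vestibular one of -1.99. The vestibular ratio was past 3-fold and went to -0.89 after length and GC correction. *Snhg12*, another host of small nucleolar RNAs, stayed below 200 in every library.

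**Figure D3:**
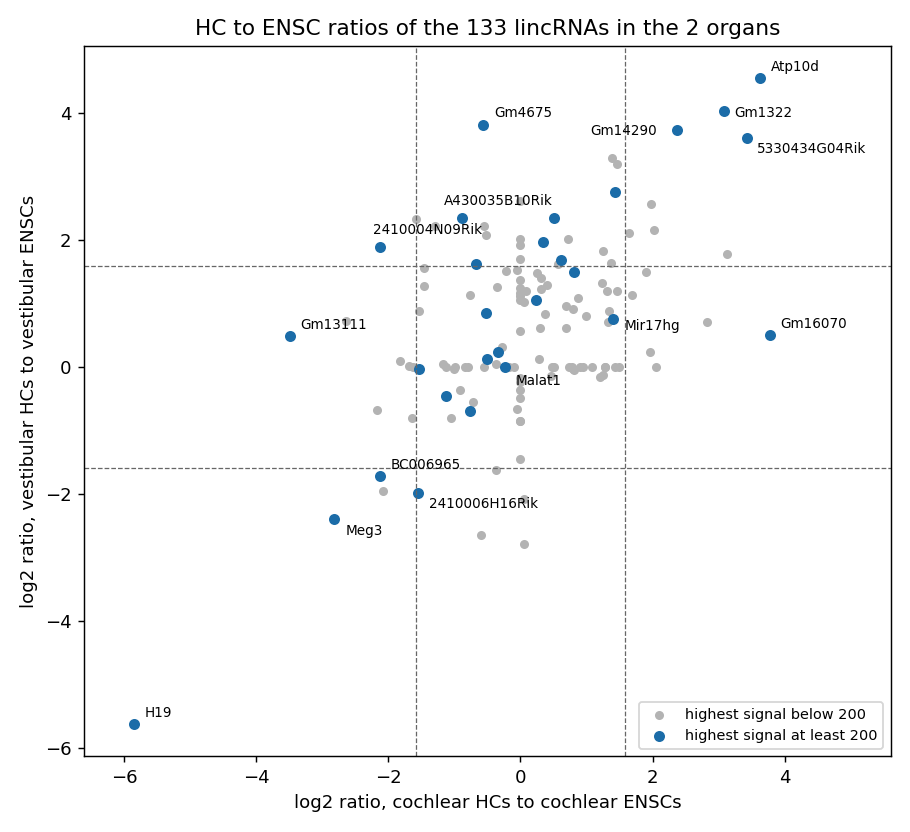
Log2 ratio of HCs to ENSCs for each of the 133 lincRNAs, in the cochlea (horizontal axis) and the vestibular system (vertical axis). Blue points reached a signal of 200 in some library, grey points did not, and dashed lines mark 3-fold. *Atp10d*, *Gm1322*, *5330434G04Rik* and *Gm14290* lie at the upper right, *H19* at the lower left (-5.85 and -5.62), and *2410004N09Rik* alone passes 3-fold in opposite directions.

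Next, the organs were compared within a cell type. Between the HC libraries 7 lincRNAs (5.26%) passed 3-fold towards the cochlea, where 4.21% of all genes were, and 9 (6.77%) were lower, where 5.09% of all genes were. In 5 of the 7 and 6 of the 9 the smaller signal was inside the tied range. Of the 28 named ones 4 were higher and 1 lower, against 3.93% and 5.57% of all genes that reached 200. The median log2 ratio was 0.00, as over all genes. Between the ENSC libraries 20 lincRNAs (15%) passed 3-fold towards the cochlea, against 7.8% of all genes, and 2 (1.5%) were lower, against 7.94% of all genes. The smaller signal was inside the tied range in 6 of the 20 and in both of the lower ones. Of the named ones 11 were higher and 0 lower, against 9.53% and 9.31% of all genes that reached 200. Past 3-fold stayed 7 of these 11 after length and GC correction and 7 with a pseudocount of 20. With a floor or a pseudocount of 100, 4 stayed. The median log2 ratio of lincRNAs was 0.30 there, with 0.00 over all genes. After length and GC correction the ENSC counts were 13 (9.92%) higher and 3 (2.29%) lower, against 7% and 5.31% of all genes. At a floor of 50, 8.27% of lincRNAs and 5.21% of all genes were higher, and at 100 these were 3.01% and 3.51%. With at least 100 in some library, 15 of 57 lincRNAs (26.3%) were higher and 2 (3.51%) lower, against 9.57% and 9.35% of all such genes.

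A pair of overlapping lincRNAs at *Nr2f1* differed between organs in both cell types. NR2F1, also called COUP-TFI, is a nuclear receptor required for the growth of the cochlea. *A830082K12Rik* (chr13:78337278-78375825, plus strand) had 620.75 in cochlear HCs, 782.25 in cochlear ENSCs, 64.5 in vestibular HCs and 55 in vestibular ENSCs. *Gm8327* (chr13:78338999-78339776, plus strand), which overlaps it on the same strand, had 460.25, 656.25, 29.75 and 27.25. Both were higher in each cochlear library than in either vestibular one, where *Gm8327* lay inside the tied range in HCs. The log2 ratios of *A830082K12Rik* between organs were 3.27 in HCs and 3.83 in ENSCs, and *Gm8327* in HCs differed by at least 15.1-fold. *Nr2f1*, on the opposite strand, had 12911.5, 13361.5, 1499.25 and 999.5. With *H19* these were the only lincRNAs past 3-fold towards the cochlea in both cell types (2.26%, against 1.14% of all genes), and none was at least 3-fold lower in both (1.23% of all genes). *H19* was under 3-fold between HC libraries with a floor of 50 (log2 ratio of 1.21) or a pseudocount of 20 (1.42). Its cochlear HC signal was below 3 times that floor.

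Exons of *A830082K12Rik* and *Gm8327* overlap exons of other genes over 4.48% and 10.5% of their length. The strand setting of the counting is not given in the sources used here, so reads from these lincRNAs and from *Nr2f1* cannot be told apart where they overlap. Of the 131 lincRNAs with a position, 51 had an exon that overlaps an exon of another gene. Among the 80 without such an overlap, 1 (1.25%) was at least 3-fold above and 6 (7.5%) at least 3-fold below vestibular HCs in cochlear HCs, where 4.21% and 5.09% of all genes were. In the vestibular HC to ENSC comparison 22 of them (27.5%) were higher and 7 (8.75%) lower, where 13.8% and 14.3% of all genes were.

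Vestibular ENSCs stood apart as the library with the fewest lincRNAs detected. In it 58 lincRNAs (43.6%) were inside the tied range, which there is the floor itself, where 11% of all genes were. In cochlear HCs, cochlear ENSCs and vestibular HCs 38, 46 and 47 lincRNAs were inside it (28.6%, 34.6% and 35.3%, against 16.7%, 14.9% and 21.0% of all genes). The median lincRNA signal was 21.75 there, 38 in cochlear ENSCs, 47.5 in vestibular HCs and 49.75 in cochlear HCs, whereas the median over protein-coding genes lay between 133.5 and 135.25 in all libraries. A signal of at least 200 was reached by 9 lincRNAs in vestibular ENSCs and by 16 to 18 in the other libraries. *Meg3*, *BC006965*, *Tug1* and *2410006H16Rik* were the named ones with their highest signal in vestibular ENSCs alone. *Malat1* had its highest signal there in a tie with cochlear ENSCs and vestibular HCs. Some markers of other cell types differed in this library and others did not. Of 8 listed neuron markers 5 were in the table. *Isl1*, which sensory epithelium also expresses, had 339 in vestibular ENSCs and between 2957.25 and 4976.25 in the other libraries. *Nefl*, *Nefm* and *Snap25* were at 20 in vestibular ENSCs, between 41 and 76.75 in cochlear ENSCs and between 1291 and 2470 in the HC libraries. They thus set ENSCs of both organs apart from HCs. *Ntrk3* was at most 61.25 anywhere. The 6 listed markers of glia, all in the table, summed to 2945 in cochlear HCs and 3372.25 in cochlear ENSCs. In vestibular HCs their sum was 813.5 and in vestibular ENSCs 2903.5. Of 6 endothelial markers *Kdr* alone was in the table, with 1461.75 in vestibular ENSCs and 24.25 to 29.75 elsewhere. Whether neurons or endothelial cells passed the gate on CD326, and their part in the lincRNA counts, was not tested.

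The GC content of the genes moved with this library. Over the genes with more than 20 in each of the libraries compared, the log2 ratio was lower at higher GC content between vestibular HCs and ENSCs (Spearman's rho = -0.395) and between cochlear and vestibular ENSCs (-0.453), and hardly so in the cochlea (-0.040). The 30 lincRNAs at least 3-fold higher in vestibular HCs had a median GC content of 44.5%, the 8 lower ones with a position 53.0%, and the 93 others 46.6%. With the ratios corrected for length and GC, 27 lincRNAs (20.6%) were higher and 4 (3.05%) lower in vestibular HCs, against 14.8% and 10% of all genes, and the lincRNA median was 0.66 against 0.12 for all genes. Among those past 3-fold, the share of higher ones was 76.9% of lincRNAs and 49.0% of all genes without correction, and 87.1% and 59.5% with it.

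**Figure D4:**
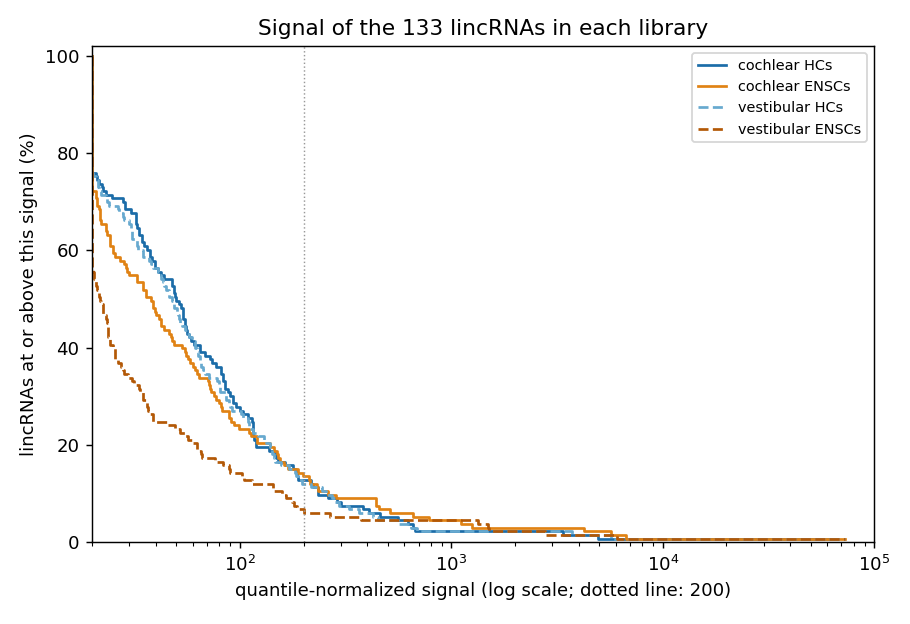
Share of the 133 lincRNAs, in percent, at or above a given signal in each library, on a log axis that starts at the floor of 20, where every curve comes down from 100. Solid lines are cochlear and dashed lines vestibular libraries. The vestibular ENSC curve lies below the other 3 over the range up to about 200, with a median of 21.75 against 38 to 49.75.

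Since many lincRNAs are transcribed beside regulatory genes, each was set beside its nearest protein-coding gene of the table. Such a gene lay within 100 kb for 120 lincRNAs, its body overlapped that of the lincRNA in 49 cases, and in 29 pairs the genes started within 2 kb of each other in opposite directions. Of the 11 lincRNAs of these pairs at least 3-fold higher in cochlear HCs, 5 had a neighbour that was also at least 3-fold higher, as had 6 of the 109 others, with 8.38% over all protein-coding genes. Of the 12 lower ones, 5 had a neighbour that was lower, as had 11 of the 108 others, with 9.59% over all protein-coding genes. In the vestibular system the numbers were 9 of 25 against 10 of 95 for higher and 4 of 8 against 14 of 112 for lower, with 13.6% and 14.6% over all protein-coding genes.

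Between organs the counts ran the same way. Higher in cochlear than in vestibular HCs were 5 neighbours of 7 such lincRNAs and 5 of the 113 others (3.99% of protein-coding genes), and lower were 4 of 8 and 5 of 112 (4.6%). Between ENSCs the higher ones were 8 of 20 and 9 of 100 (7.63%) and the lower ones 1 of 2 and 8 of 118 (7.55%). Across the 120 pairs the log2 ratios of lincRNA and neighbour correlated with Pearson's r between 0.414 and 0.507 and Spearman's rho between 0.267 and 0.389 in the 4 comparisons. These are descriptions: both genes of a pair were read from the same libraries, some overlap, and a neighbour can serve more than 1 lincRNA.

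Single pairs show how the levels related. *Atp10d* lies 1250 nt from *Corin*, a membrane protease gene with signals of 529.75 for cochlear HCs, 27.5 for cochlear ENSCs, 246.25 for vestibular HCs and 36.75 for vestibular ENSCs. Both genes were high in the 2 HC libraries and low in the 2 ENSC libraries. *Gm16070* overlaps *Crispld1* on the opposite strand over 6.57% of its exonic length, and *Crispld1* had 1363.25, 392.75, 45.75 and 56 in the same order, so that both were highest in cochlear HCs. *Gm4675* shares 23.2% of its exonic length with other genes, among them *Sox21*, a transcription factor gene of the prosensory epithelium, with 867.75, 1476.75, 1568.75 and 265.5. Both were lowest in vestibular ENSCs.

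Other pairs parted. *Mef2c*, 54476 nt from *C130071C03Rik*, had 23.25, 147.75, 52.25 and 294.75 in the order above and was higher in ENSC libraries, where the lincRNA was lower. *Tm9sf2*, which starts 64 nt from *A330035P11Rik*, had signals between 1817 and 3246.75 with no 3-fold difference, while the lincRNA was 3.22-fold higher in cochlear than in vestibular ENSCs. That log2 ratio of 1.69 went under 3-fold after length and GC correction (1.31) and with a floor of 100 (1.51). The cochlear ENSC signal of the lincRNA was below 3 times that floor. *Gpc5*, 45488 nt from *Mir17hg*, was lowest in cochlear HCs (23), where *Mir17hg* was highest (261).

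**Figure D5:**
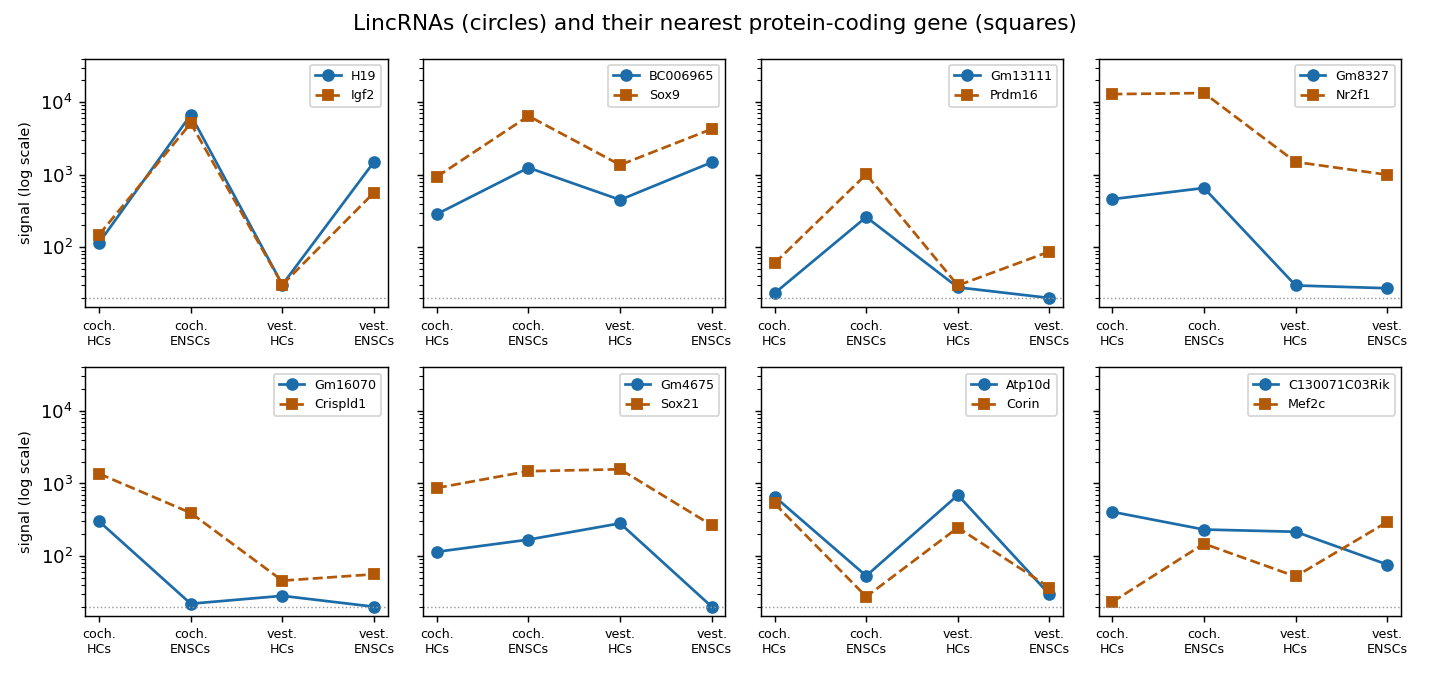
Signal in the 4 libraries, on a log axis, of 8 lincRNAs (circles, solid lines) and of their nearest protein-coding gene in the table (squares, dashed lines). The dotted line is the floor of 20, and lines only join the points of 1 gene. *H19* and *Igf2* both peak in cochlear ENSCs (6676.75 and 5119), *Atp10d* and *Corin* are high in both HC libraries, and *C130071C03Rik* and *Mef2c* are highest in different libraries (cochlear HCs and vestibular ENSCs).

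The remaining named lincRNAs differed less. *2610203C20Rik*, which RefSeq lists under the name *Mir100hg*, the host gene of miR-100, had 383.75 in cochlear HCs, 1107.25 in cochlear ENSCs, 366.5 in vestibular HCs and 375.5 in vestibular ENSCs, so that cochlear ENSCs stood apart by 2.89-fold from cochlear HCs. *6330403K07Rik*, which RefSeq lists as protein-coding, was highest in cochlear ENSCs as well, with 510.75 against 132.5 to 234 elsewhere. *2810001G20Rik* ranged only from 104 to 234.25. Of the 105 lincRNAs below 200, 18 (17.1%) were at least 3-fold higher in vestibular HCs and 5 (4.76%) lower, against 9.32% and 10.2% of all genes below 200. Between ENSCs 9 of them (8.57%) were higher in the cochlea and 2 (1.9%) lower, against 5.73% and 6.31%.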

How the data were processed

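RNA of the sorted, pooled cells was sequenced from 4 libraries. The labels name polyA RNA, whereas the methods of the study describe amplification of total RNA. The authors aligned the first 50 nt of the reads to mm9 with TopHat, counted them with HTSeq and deposited quantile-normalized signal with a floor of 20. Tool versions, the strand setting and the annotation release are not given in the sources used here. The design text speaks of triplicates, but 1 column per group was used here, so no test was run.

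Log2 ratios were taken of the deposited signal with no pseudocount, and 3-fold was the threshold. LincRNAs were named when they reached 200 in some library, and described in full by ratio (the 6 largest each way per comparison), by signal per kb (the 6 highest per library) or by membership of a list of known lncRNAs. The members and lists were chosen with earlier results of these data known. Positions, lengths and GC content came from GENCODE vM1 on NCBIM37, and RefSeq tables (GRCm38.p6) gave names and microRNA sequences. The alternatives were floors, pseudocounts, thresholds, a filter at 100, centring, tied ranges set to their top, a lowess correction for length and GC, lincRNAs free of exon overlap and, added after seeing the data, lincRNAs that RefSeq does not list as protein-coding. Scripts used Python 3.11.15, pandas 2.3.3, scipy 1.17.1 and statsmodels 0.14.6 and were tested on simulated data.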

Additional observations from a re-analysis of the deposited data

Results flagged for a closer look

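*2410004N09Rik* passed 3-fold in opposite directions in the 2 organs. Its signals were 49.25 in cochlear HCs, 213.75 in cochlear ENSCs, 79.75 in vestibular HCs and 21.5 in vestibular ENSCs, giving HC to ENSC log2 ratios of -2.12 (cochlea) and 1.89 (vestibular organs). With 1 library per group the difference between the organs was not tested. After length and GC correction the ratios were -1.72 and 3.22, and with a floor of 100 they were -1.10 and 0.00.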

How the results depend on the processing

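No paired analysis was run, and with 1 library per group leaving out a replicate was not possible. Counts below are lincRNAs at least 3-fold higher and lower in the first library, in the order cochlear HCs to ENSCs, vestibular HCs to ENSCs, cochlear to vestibular HCs and cochlear to vestibular ENSCs. A floor of 50 gave 6 and 5, 13 and 7, 3 and 3, and 11 and 1. The lower ones were 3.76%, 5.26%, 2.26% and 0.752% of lincRNAs, against 6.29%, 10.6%, 3.06% and 5.59% of all genes. A floor of 100 gave 2 and 3, 5 and 3, 3 and 0, and 4 and 0. The lower ones were then 2.26%, 2.26%, 0% and 0% of lincRNAs, against 4.41%, 7.58%, 1.9% and 4.03% of all genes. A pseudocount of 20 gave 8 and 6, 16 and 6, 5 and 4, and 10 and 1, and one of 100 gave 2 and 3, 4 and 2, 3 and 0, and 4 and 0. With that of 20 the lower ones were 4.51%, 4.51%, 3.01% and 0.752%, against 6.2%, 10.1%, 3.09% and 5.32% of all genes. With that of 100 they were 2.26%, 1.5%, 0% and 0%, against 3.17%, 5.7%, 1.27% and 2.82%. A threshold of 2 gave 32 and 24, 55 and 10, 22 and 20, and 37 and 6, and one of 5 gave 7 and 4, 13 and 4, 3 and 3, and 9 and 1. Past the threshold of 2 were 24.1% and 18.0% of lincRNAs against 16.5% and 17.4% of all genes, 41.4% and 7.52% against 23.5% and 24.5%, 16.5% and 15% against 10.5% and 10.5%, and 27.8% and 4.51% against 17.3% and 17.3%. Past that of 5 were 5.26% and 3.01% against 4.56% and 3.99%, 9.77% and 3.01% against 7.35% and 6.82%, 2.26% and 2.26% against 1.3% and 2.13%, and 6.77% and 0.752% against 3.07% and 3.21%. Set beside all genes, higher in cochlear HCs than ENSCs were 4.51% of lincRNAs and 5.88% of all genes with a floor of 50, and 1.5% and 4.07% with one of 100. These shares were 6.02% and 6.16% with a pseudocount of 20, and 1.5% and 3.07% with one of 100. In vestibular HCs they were 9.77% and 9.87% with a floor of 50, 3.76% and 7.03% with one of 100, 12.0% and 10.2% with a pseudocount of 20, and 3.01% and 5.24% with one of 100. In cochlear against vestibular ENSCs they were 8.27% and 5.21%, 3.01% and 3.51%, 7.52% and 5.12%, and 3.01% and 2.33% under the same settings. In cochlear against vestibular HCs they were 2.26% and 2.3%, 2.26% and 1.47%, 3.76% and 2.29%, and 2.26% and 0.897%. Between HC libraries the larger count passed from lower to higher with a floor of 100, either pseudocount or a threshold of 2, and in the cochlea from higher to lower with a floor or pseudocount of 100 or without exon overlap. Among the 57 lincRNAs with a signal of at least 100, 11 were higher and 6 lower in cochlear HCs than ENSCs. After length and GC correction 4 were lower in vestibular HCs and 13 higher in cochlear ENSCs than in vestibular ones. Without exon overlap 8 were higher and 9 lower in cochlear HCs than ENSCs, and higher were 1 in cochlear than vestibular HCs and 11 in cochlear than vestibular ENSCs. Without those that RefSeq lists as protein-coding, 1 was lower in cochlear than vestibular ENSCs.

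The median log2 ratios moved as well. With floors of 50 and 100 they were 0.00 in the vestibular and the ENSC comparison, and pseudocounts of 20 and 100 gave 0.34 and 0.13 in the vestibular and 0.19 and 0.068 in the ENSC comparison. Among the 57 lincRNAs with at least 100 the medians were -0.0455, 1.13, -0.20 and 0.85. Centring gave -0.0109 in the cochlea, and tied ranges set to their top gave -0.20 between HC libraries. Many lincRNAs lie near the floor, so that the counts rest on low signals. The causes of the other shifts were not tested. Sequencing depth is unknown.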

Other observations

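The biotype in the table was set beside later annotation. By name, RefSeq lists 104 of the 133 lincRNAs as lncRNA, 11 as protein-coding and 1 as a transcribed pseudogene, and 17 had no match. Of 71 known lncRNAs listed, 10 were lincRNAs of the table. By symbol these were *Malat1*, *Meg3*, *H19*, *Mir17hg*, *Snhg12* and *Tug1*, and by RefSeq synonym *Oip5os1* (*1700020I14Rik*, Cyrano), *Epb4.1l4aos* (*2410004N09Rik*), *Firre* and *Crnde*. *Xist*, *Neat1*, *Gas5* and *Sox2ot* were given as non-coding and were therefore not members.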
